A study of Rattus norvegicus with 9 samples.

Results

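Mlc1 and Etnppl were followed through 9 rat livers. They are 2 of the 17156 genes listed in the deposited tables and were chosen from the measured values, since both had more reads in the TA livers than in the model livers and Mlc1 was also far above the normal livers. The livers came from male Sprague-Dawley rats of a normal, a model and a TA group, each of n = 3. Rats of the model and TA groups were given carbon tetrachloride (CCl4), a liver toxin, by gavage at 2 ml/kg as a 50% oil solution in 2 doses per week for 9 weeks to bring about liver fibrosis. The TA rats were then given tormentic acid (TA), a plant triterpenoid, at 3.0 mg/kg for 6 weeks, whereas the normal rats received neither agent. The TA labels carry no dose, which is taken from the design text of the series, and the labels name the model and TA livers by a hepatitis stage. All rats, those of the normal group included, were fasted for 12 h before the livers were taken.

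MLC1 is a membrane protein known best from astrocytes, where it sits in the endfeet around blood vessels. It is held there with the adhesion protein HEPACAM, works with chloride channels in the regulation of cell volume, and its loss in humans causes megalencephalic leukoencephalopathy with subcortical cysts. ETNPPL is the ethanolamine-phosphate phospho-lyase, a pyridoxal phosphate enzyme related to the class III aminotransferases that splits phosphoethanolamine into acetaldehyde, ammonia and phosphate. It is expressed in liver and in astrocytes, and in liver its mRNA is known to follow fasting and glucocorticoids. Phosphoethanolamine is also the building block of the CDP-ethanolamine route to phosphatidylethanolamine, a main membrane phospholipid.

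The bases just before the start sites of both genes are shown because the genes were compared with the response lists of fasting, glucocorticoids and the clock, whose factors bind short known motifs. They are the 250 bases before the RefSeq start site in the rat assembly GRCr8. For Mlc1 these are chr7:121946699-121946948 on the minus strand, and for the first of the 3 start sites of Etnppl chr2:221846960-221847209 on the plus strand. Capitals mark a match to a searched motif.
Mlc1: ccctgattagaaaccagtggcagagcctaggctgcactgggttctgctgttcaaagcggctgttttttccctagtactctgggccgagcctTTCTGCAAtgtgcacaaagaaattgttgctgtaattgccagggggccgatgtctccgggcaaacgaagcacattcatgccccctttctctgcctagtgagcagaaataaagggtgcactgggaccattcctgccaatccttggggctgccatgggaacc
Etnppl: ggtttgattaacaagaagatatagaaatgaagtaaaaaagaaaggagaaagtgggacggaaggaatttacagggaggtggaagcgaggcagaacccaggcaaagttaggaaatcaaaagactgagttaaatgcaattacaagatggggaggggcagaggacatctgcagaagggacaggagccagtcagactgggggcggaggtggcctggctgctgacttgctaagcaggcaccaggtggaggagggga
The Mlc1 sequence held 1 match, to the C/EBP motif TTGCNNAA on the other strand, 159 bases before the start, and 9.22% of all 33469 promoters in the RefSeq table hold such a match. The Etnppl sequence shown held 0 matches, as did the one before the second start site, while the one before the third, not shown, held 1 to the forkhead motif and 1 to the C/EBP motif, which did not overlap. The motifs were searched on both strands with N for any base, and a match is a description of letters and not a site in use. The other 8 were the glucocorticoid receptor element, found in 0.373% of all promoters, the short cyclic AMP element TGACG in 18.2%, the clock E-box CACGTG in 5.59%, the D-box TTATGTAA in 0.828%, the forkhead motif TGTTTNC in 18.3%, the HNF4 motif CAAAGNNCA in 5.22%, the nuclear receptor element AGGTCA in 14.1% and the AP-1 motif TGANTCA in 6.34%. GC content was 53.6% for Mlc1 and 50.0% for Etnppl, beside a median of 51.2% over all promoters.

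Between 13156735 and 18090405 reads were counted on genes per liver. The first model liver stood apart, with 27.9% of its reads in its 50 genes with the most reads against 40.4% to 45.7% in the other 8 livers, and with a TMM scaling factor of 1.72 against 0.819 to 1.17. The summed level of 7 hepatocyte markers (Alb, Apoa1, Ttr, Serpina1, Cps1, Hnf4a and Tat) was 25779 CPM (reads scaled to a common library size, after TMM normalization) in that liver, 73351 and 91937 in the other model livers, 109164 to 138534 in the normal livers and 85884 to 147172 in the TA livers, and the markers of liver were thus present in every library. Alb made up most of the hepatocyte sum, with 455545 reads in the first model liver against 1775 to 72982 for the other markers. Apoa1 had 18173 reads there and 7774 to 21544 in the normal livers. The summed level of 7 stellate cell and myofibroblast markers was 11694 CPM in the first model liver, 1117 and 1415 in the other model livers, 628 to 1141 in the TA livers and 208 to 310 in the normal livers. The values of Mlc1 and Etnppl and the counts of the gene lists in TA VS Model are therefore also given without it. So are the values of the named genes that lost their call, while other such genes are not named. In bulk tissue, fewer cells of a type and less RNA per cell cannot be told apart.

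Mlc1 was close to absent from normal liver, present in 2 of the 3 model livers and present in every TA liver. It had 0, 6 and 6 reads in the normal livers. It had 0, 92 and 152 reads in the model livers, the 0 being the first model liver, where the limit that a count of 0 allows is 3 reads or 0.132 CPM, counting error only. It had 413, 535 and 398 reads in the TA livers. Every TA liver was thus above every model liver and every model liver but the first was above every normal liver.

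In CPM after TMM scaling, Mlc1 was at 0, 0.388 and 0.502 in the normal livers, at 0, 6.00 and 10.8 in the model livers and at 29.6, 45.4 and 29.7 in the TA livers. The group means were 0.297 ± 0.263 CPM (SD, n = 3) for the normal, 5.59 ± 5.39 (SD, n = 3) for the model and 34.9 ± 9.12 (SD, n = 3) for the TA livers. The TA livers lay close together, while the SD of the model livers was nearly as large as their mean. By length-scaled level (FPKM), Mlc1 stood at places 4357, 3253 and 4497 of the 16730 genes in both tables in the TA livers and at places 9492 and 7709 in the second and the third model liver. It was at 9.32 to 13.9 FPKM in the TA livers.

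Etnppl, in contrast, was a well expressed gene of normal liver that was low in the model livers and high again in the TA livers. It had 1255, 5327 and 3876 reads in the normal livers. It had 99, 1037 and 721 reads in the model livers, with the lowest number again in the first model liver. It had 3878, 2341 and 5470 reads in the TA livers. All 3 model livers were below all 6 other livers, and the normal and TA livers overlapped.

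Etnppl was at 105, 345 and 324 CPM in the normal livers, at 4.37, 67.6 and 51.0 in the model livers and at 278, 199 and 408 in the TA livers. The group means were 258 ± 133 CPM (SD, n = 3) for the normal, 41.0 ± 32.8 (SD, n = 3) for the model and 295 ± 106 (SD, n = 3) for the TA livers. By length-scaled level, it stood at places 980 to 2505 of 16730 genes in the normal livers, 3183 to 11451 in the model livers and 856 to 1445 in the TA livers. The ratio of Etnppl to Mlc1 in FPKM was 574 and 417 in the second and the third normal liver, 7.28 and 3.07 in the second and the third model liver and 6.07, 2.83 and 8.88 in the TA livers. In the livers with Mlc1 reads, the ratio of the normal livers was thus far above those of the model and TA livers, which overlapped. Mlc1 was chosen for lying far above normal liver, so that this order is no separate result. The normal ratios rest on 6 Mlc1 reads each.

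**Figure D1:**
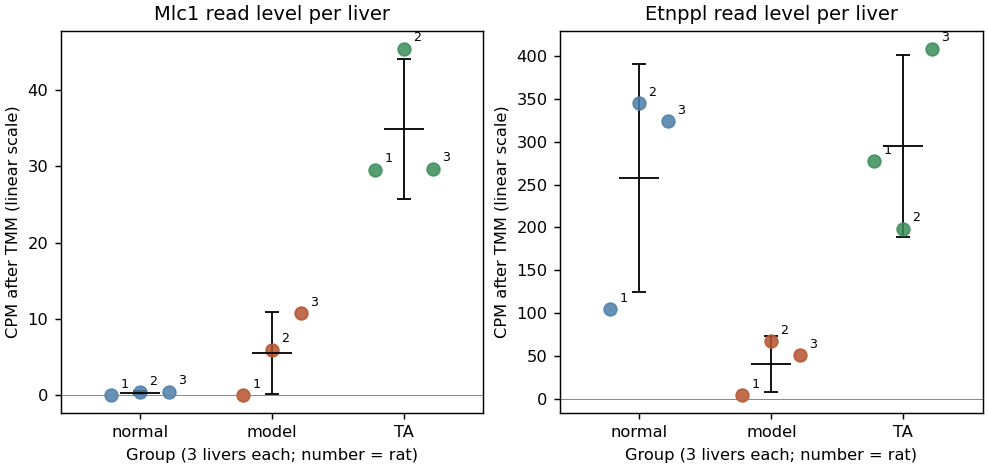
CPM after TMM scaling (vertical axes, linear, starting near 0) of Mlc1 (left) and Etnppl (right) in each of the 9 livers by group, with the rat's number beside each point and the mean ± SD of 3 livers as bars. The TA livers of Mlc1 sit between 29.6 and 45.4 CPM, above all others, whereas for Etnppl the model livers sit between 4.37 and 67.6 CPM, below all others.

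TA VS Model is the comparison that chose both genes, so that the values are a description. Mlc1 was 6.30-fold higher in the TA livers (log2 fold change 2.66, SE 1.14) and Etnppl 7.16-fold higher (log2 fold change 2.84, SE 0.86), by the fit of edgeR over all 12781 genes tested. They held places 13 and 9 among those genes, ordered from the most raised by fitted log2 fold change, and places 9 and 6 among the 8664 genes with a mean log2 CPM of 3 or more. Without the first model liver, the log2 fold change was 2.06 for Mlc1 and 2.32 for Etnppl. Of all genes tested, 12.3% passed the thresholds of the study's methods (p below 0.05 without adjustment, together with a log2 fold change beyond 1), 2.11% as higher and 10.2% as lower in TA. Higher calls were 17.2% of all calls after TMM scaling and 3.69% when only the library totals were used, a scaling that moved the median log2 fold change of all genes from -0.0038 to -0.48. On that scaling Mlc1 was at 2.40 and Etnppl at 2.56. By edgeR, 0 genes passed an adjusted p of 0.05, with 1999 at an unadjusted p under 0.05, while DESeq2 called 541 and limma voom 169 by adjusted p.

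Model VS Normal was not itself used to choose the genes, although its model livers are those of the choice, and for Mlc1 its normal livers as well. A choice for model livers below the TA livers leans Etnppl toward a fall here. Its p-values are therefore not free of the choice. Etnppl was 6.24-fold lower in the model livers (log2 fold change -2.64, SE 0.90, 95% interval -4.71 to -0.57). It was lower in all 3 model livers than in any normal liver and passed the thresholds of the study's methods (unadjusted p = 0.0186), as did 22.1% of all 12730 genes tested (16.6% as higher and 5.55% as lower), but not an adjusted p of 0.05, which 7.87% of genes passed (adjusted p = 0.104, edgeR's quasi-likelihood test). The exact two-sided permutation test of 3 against 3 livers gave p = 0.1, the smallest it can give. Without the first model liver the log2 fold change was -2.13 with an adjusted p of 0.0495 by the same edgeR test. That liver had the fewest Etnppl reads of all livers. With the replicate number as a block the log2 fold change was -3.14 (adjusted p = 0.0180, same test), although the labels pair no livers. On library totals alone it was -2.21, where the median of all genes rose to 0.65.

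Mlc1 did not pass the filter on low counts in Model VS Normal. Its mean log2 CPM was 1.07 in the model livers and -1.48 in the normal livers, a difference of 2.54, and the groups overlapped. Both the model and the normal levels of Mlc1 had entered its choice, so that its values are a description with no test. Fitted without the filter, the log2 fold change was 4.17 (SE 1.48). The first model liver, with its 0 reads, made the overlap. Without it the log2 fold change was 4.74 (SE 0.74), a description with no test, since the liver left out is the 1 model liver without reads.

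TA VS Normal was used to choose Mlc1 and not Etnppl, although its TA livers entered the choice of Etnppl as well. Mlc1 was 109-fold higher in the TA livers by the fit (log2 fold change 6.77, SE 0.57, a description), which rests on 0, 6 and 6 reads in the normal livers. The log2 fold change ran from 6.24 to 7.25 as each liver was left out in turn. For Etnppl the groups overlapped and no difference was detected (log2 fold change 0.16, SE 0.45, adjusted p = 0.974 by edgeR's quasi-likelihood test, exact permutation test p = 0.7). The 95% interval of the log2 fold change, -0.86 to 1.18, allows levels in TA from 0.550-fold to 2.26-fold of those in the normal livers. Its sign turned to -0.22 without the first normal liver and to -0.15 without the third TA liver. In this comparison 5.25% of the 12179 genes tested passed the thresholds of the study's methods, 4.24% as higher and 1.02% as lower in TA, and 0.263% passed an adjusted p of 0.05. Mlc1 and Etnppl therefore differed in where the TA livers stood relative to normal liver, a difference that the choice of Mlc1 made use of.

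The known partners of MLC1 at the membrane were read next, from a list of 12 genes of which 7 could be tested. By the same thresholds, 0 of 7 rose and 2 fell in TA VS Model, where 2.11% of all genes rose and 10.2% fell. The median log2 fold change was -0.21 beside -0.0038 for all genes tested. Both calls were also made without the first model liver. Hepacam, the adhesion protein that anchors MLC1 in astrocytes, had 0 to 9 reads in every liver and could not be tested, also in the TA livers, which had 398 to 535 Mlc1 reads, and the chloride channel Clcn2 was not analysed here. Cav1, the scaffold protein of caveolae, had 46, 42 and 31 reads in the normal livers, 813, 312 and 116 in the model livers and 60, 42 and 66 in the TA livers, and fell in TA VS Model (log2 fold change -2.35, unadjusted p = 0.00204, adjusted p = 0.230 by edgeR). Gja1, the gap junction protein connexin 43, fell as well (-1.56, unadjusted p = 0.00196, adjusted p = 0.230 by edgeR), and its model livers, at 504 to 1840 reads, were all above its TA livers, at 212 to 299. Atp1b1, a sodium pump subunit, and Dag1, dystroglycan, were at -0.46 and -0.21 and did not pass. Both Cav1 and Gja1 had been higher in the model than in the normal livers, at 2.84 and 2.11 (adjusted p = 0.0263 and 0.0276, edgeR), while the TA livers were the highest for Mlc1. Of the 7 stellate cell and myofibroblast markers summed above, 5 fell and 0 rose in TA VS Model by the same thresholds, and their part in the values of Cav1 and Gja1 was not tested.

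Of the 12 tested genes of cell volume regulation, 0 were higher and 2 lower in TA VS Model, where 10.2% of all genes were lower, with a median of -0.57. Without the first model liver 0 were called and the median was -0.22, without the second TA liver 0 were called, and without the second or the third model liver 4 were. The pair that fell was Lrrc8e, a subunit of the volume-regulated anion channel (-1.70, unadjusted p = 0.0196), and Akr1b1, aldose reductase, which makes the osmolyte sorbitol (-1.49, unadjusted p = 0.0291). When the first model liver was left out, Lrrc8e was at -1.48 (unadjusted p = 0.0519) and Akr1b1 at -0.49 (unadjusted p = 0.114). Slc6a12, the betaine transporter, was at 0.89, and Trpv4, a calcium channel that responds to cell swelling, at -1.05, and neither passed. In Model VS Normal, where 16.6% of all genes were higher, 5 of the 12 were higher and 0 lower, with a median of 0.85, and without the first model liver 3 were higher, with a median of 0.44.

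Both genes are also known from astrocytes, and 15 other genes enriched in astrocytes, Gja1 again among them, could be tested. Of these, 3 rose and 4 fell in TA VS Model, beside 2.11% and 10.2% of all genes. The median was 0.02 on the TMM scale and -0.42 on library totals, where the median of all genes was -0.48. Without the first model liver 1 was higher and 3 were lower, with a median of 0.34, and without the second TA liver 3 were called. Slc1a2, the glutamate transporter GLT-1, which hepatocytes also express, had 143, 318 and 101 reads in the normal livers, 13, 59 and 97 in the model livers and 310, 328 and 163 in the TA livers. It rose in TA VS Model (2.47, unadjusted p = 0.0111, adjusted p = 0.258 by edgeR). Its TA livers were all above its model livers, while the share of all genes with such an order is not given here. Ndrg2 rose too (1.64, unadjusted p = 0.0356), whereas Sox9, a transcription factor of bile duct cells as well as of astrocytes, fell (-1.88, unadjusted p = 0.00130), as did Atp1b2, a sodium pump subunit, with overlapping groups (-1.58, unadjusted p = 0.0442). Without the first model liver Atp1b2 was at -0.96 (unadjusted p = 0.195) and Ndrg2 at 1.27 (unadjusted p = 0.0517), and neither passed. Of 6 bile duct cell markers, Sox9 included, 5 fell as well, and their sum was 125 to 192 CPM in the model livers, 57.4 to 59.1 in the TA livers and 35.9 to 56.3 in the normal livers. The glia and Schwann cell markers that were measured, 6 of 7 listed, summed to 6.30 to 10.2 CPM in the TA livers, 8.78 to 12.0 in the model livers and 7.83 to 13.5 in the normal livers. Gfap had 16 to 66 reads in every liver and Sox10 had 0 reads in 7 of the 9 livers, and the sums of the 3 groups overlapped.

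The enzymes that make and use phosphoethanolamine, the substrate of ETNPPL, formed a list of 20 genes of which 18 could be tested. In TA VS Model, 0 of 18 passed in either direction by edgeR, where 12.3% of all genes did, and the median was 0.50 beside -0.0038 for all genes, or 0.10 beside -0.48 on library totals. That count was not firm, since DESeq2 called 3, limma voom 5, the fit with all 9 livers 2 and the replicate block 4, while leaving out the first model liver gave 1 and leaving out the third gave 8. In Model VS Normal, 0 were higher and 3 lower, beside 16.6% and 5.55% of all genes. The median there was -0.38, turning to 0.13 on library totals beside 0.65 for all genes. In TA VS Normal 2 of 17 were higher and 0 lower, beside 4.24% and 1.02% of all genes. Etnk1 and Etnk2, the ethanolamine kinases that make phosphoethanolamine, were at -0.32 and 1.14 in TA VS Model and neither passed. Etnk2 was at 0.70 without the first model liver. Etnk2, the form typical of liver, had 4813, 7162 and 5644 reads in the normal livers, 782, 2022 and 3071 in the model livers and 3616, 3640 and 3740 in the TA livers. It fell in Model VS Normal (-1.79, unadjusted p = 0.0175, adjusted p = 0.101 by edgeR), and its TA livers lay between the other groups in CPM without overlap.

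Pcyt2, which joins phosphoethanolamine to CTP and is the rate-limiting step of phosphatidylethanolamine synthesis by this route, had 5499, 7824 and 8839 reads in the normal livers, 1475, 3183 and 3877 in the model livers and 4051, 3829 and 8957 in the TA livers. It fell in Model VS Normal (-1.63, unadjusted p = 0.0174, adjusted p = 0.101 by edgeR) and was at 1.22 in TA VS Model (unadjusted p = 0.0714). Sgpl1, the sphingosine-1-phosphate lyase that releases phosphoethanolamine from sphingolipids, was at 0.08 in TA VS Model, with overlapping groups. Aldh2, which removes acetaldehyde, a product of the ETNPPL reaction, was the third gene that fell in Model VS Normal (-1.41, unadjusted p = 0.0426) and was at 1.00 in TA VS Model without passing. Chka, a choline and ethanolamine kinase, was at 1.71 in TA VS Model (unadjusted p = 0.0766) and rose in TA VS Normal (1.48, unadjusted p = 0.0201), with 8502 reads in the third TA liver and 2010 and 2207 in the others. The second gene that rose in TA VS Normal was Phospho1, a phosphatase of phosphoethanolamine and phosphocholine (1.09, unadjusted p = 0.00501).

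The class III aminotransferases related to ETNPPL were a list of 4, of which 3 could be tested. Of these, 2 rose in TA VS Model, beside 2.11% of all genes. That count was 1 on library totals or without the first model liver and 0 without the second model liver or without any of the 3 TA livers. Oat, ornithine aminotransferase, had 5404, 6757 and 5275 reads in the normal livers, 1265, 1611 and 4705 in the model livers and 7065, 8314 and 5090 in the TA livers (1.68 in TA VS Model, unadjusted p = 0.0347, adjusted p = 0.296 by edgeR). Abat, the GABA aminotransferase, rose (1.29, unadjusted p = 0.0405) and had fallen in Model VS Normal (-1.76, unadjusted p = 0.00931). Agxt2, a mitochondrial aminotransferase, was at 0.58 with overlapping groups, and Phykpl, the nearest known relative of ETNPPL, acting on phosphohydroxylysine, had 0 to 2 reads in every liver and was not tested. Oat was at 1.28 and passed without the first model liver, while Abat was at 0.88. The summed level of the hepatocyte markers, given above, was lowest in the first model liver, although 0 of the 7 passed in TA VS Model by the same thresholds. The part of these markers in the aminotransferase values was not tested.

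**Figure D2:**
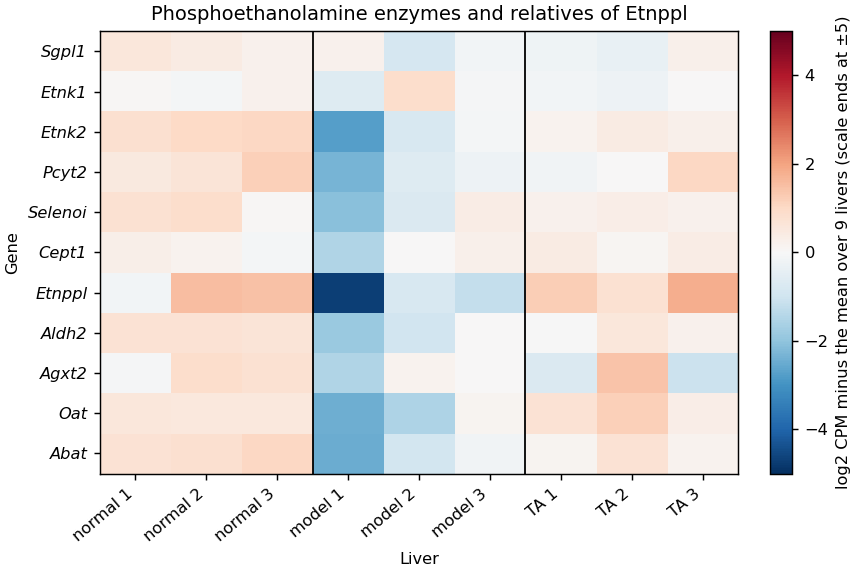
Colour shows log2 CPM minus the gene's mean over the 9 livers (red above, blue below, scale ending at 5 in either direction) for Etnppl, enzymes that supply or use phosphoethanolamine or its products, and class III aminotransferases (rows) in each liver (columns, groups parted by lines). The first model liver is the lowest liver for Etnppl, Etnk2, Pcyt2, Oat and Abat, whereas for Sgpl1 the lowest is the second model liver.

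Since hepatic Etnppl is known to follow fasting and glucocorticoids, genes of both responses were read beside it. Of 18 genes of fasting and gluconeogenesis, 2 were higher and 0 lower in TA VS Model, beside 2.11% and 10.2% of all genes. The median was 0.74, or 0.44 on library totals and 0.27 without the first model liver. In Model VS Normal 0 were higher and 2 lower (median -1.03), beside 16.6% and 5.55% of all genes. In TA VS Normal 1 was higher and 1 lower (median -0.14, and 0.05 on library totals), beside 4.24% and 1.02% of all genes. Lpin1, a phosphatidate phosphatase that is induced by fasting, had 92, 173 and 235 reads in the model livers and 2473, 283 and 344 in the TA livers, with the highest value in the first TA liver (2.82, unadjusted p = 0.0130). Cpt1a, the gate of mitochondrial fatty acid oxidation, rose as well (1.33, unadjusted p = 0.0307) but was at 0.98 without the first model liver, which left Lpin1 as the 1 called gene of the list. The count of the list ran from 0 without the first TA liver to 9 without the third model liver. Pck1 and G6pc, the gluconeogenic enzymes PEPCK and glucose-6-phosphatase, were at 1.24 and 1.19, or at 0.74 and 0.67 without the first model liver, and did not pass.

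Of 14 glucocorticoid response genes, 1 was higher and 0 lower in TA VS Model, beside 2.11% and 10.2% of all genes. The median was 0.55, and 0.36 without the first model liver, where again 1 was higher and 0 lower. By edgeR, 0 of the 14 passed in Model VS Normal or in TA VS Normal, where 22.1% and 5.25% of all genes did. In Model VS Normal, 2 were higher and 1 lower without the first model liver, limma voom called 5 and DESeq2 2. In TA VS Normal the replicate block called 1 and library totals 2, and 1 to 2 were called as each liver was left out in turn. The gene that rose was Klf9, a transcription factor induced by the glucocorticoid receptor (1.50, unadjusted p = 0.0105), with overlapping groups. Hsd11b1, which makes active glucocorticoid in the liver, was at 1.28, Zbtb16 at 1.16 and Dusp1 at 1.15, and they did not pass. Genes of the opposite state, feeding and lipogenesis, had a like median of 0.72 over the 10 tested in TA VS Model. Of these, 1 was higher and 0 lower, beside the same 2.11% and 10.2% of all genes. Without the first model liver 1 was higher and 0 lower, with a median of 0.58 beside 0.27 for the fasting list. DESeq2 and the replicate block each called 3, and library totals 0. Acaca, acetyl-CoA carboxylase, was that gene (1.08, unadjusted p = 0.00328), while the pyruvate kinase Pklr was at 1.05 and the transcription factor Srebf1 at 1.01 without passing, or at 0.66 and 0.88 without the first model liver. The medians of the fasting list and of the feeding list were thus both above that of all genes in TA VS Model and both below it in Model VS Normal.

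Clock genes were read because the hour of sampling moves many fasting genes. Of 16 tested, 1 was higher and 3 lower in TA VS Model, beside 2.11% and 10.2% of all genes. The median was 0.17 and turned to -0.28 on library totals. Without the first model liver 0 were higher and 2 lower. Without the third model liver 7 were called. Dbp, an output factor of the clock, had 125, 92 and 1545 reads in the normal livers, 1108, 794 and 189 in the model livers and 97, 74 and 136 in the TA livers, and fell in TA VS Model (-2.31, unadjusted p = 0.00207). The third normal liver stood far from the other normal livers. Bhlhe41 fell (-3.02, unadjusted p = 0.0208; -1.19 without the first model liver, with unadjusted p = 0.161), Per3 fell (-1.81, unadjusted p = 0.000941) and Hlf rose (1.24, unadjusted p = 0.0353; 0.99 without the first model liver, with unadjusted p = 0.0756). These values moved in TA VS Model beside those of Mlc1 and Etnppl, whereas in Model VS Normal the groups overlapped for Dbp, Per3 and Hlf. The part of the clock genes in the values of Mlc1 and Etnppl was not tested.

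**Figure D3:**
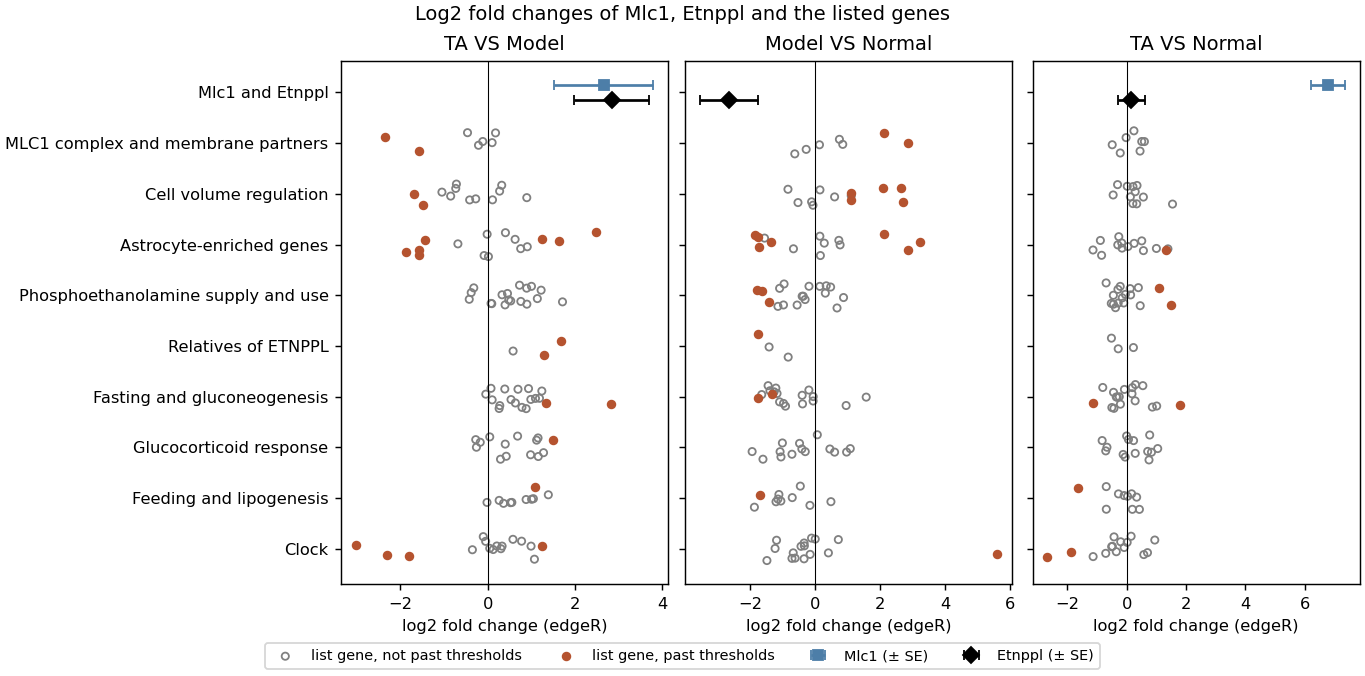
Log2 fold changes from edgeR (horizontal axes) of Mlc1 and Etnppl with their standard errors (top row) and of the tested genes of each list (other rows) in TA VS Model, Model VS Normal and TA VS Normal, filled where a listed gene passed the thresholds of the study's methods. In TA VS Model, Mlc1 at 2.66 and Etnppl at 2.84 stand to the right of nearly all listed genes, Lpin1 at 2.82 and Slc1a2 at 2.47 being the nearest. Mlc1 and Etnppl were chosen from this comparison, so that their place in it is no separate result. Mlc1 has no point in Model VS Normal, where it did not pass the filter on low counts.

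The 5 genes with the pattern most like each of the 2 were found by the mean absolute difference in log2 CPM over the 9 livers, each gene centred on its own mean, among 12997 other genes. Because both genes were chosen for their order of groups, the same order in these genes is no separate result. For Etnppl these were Mfsd2a at 0.581, Gpt at 0.611, Sds at 0.642, Prodh1 at 0.660 and Nxpe5 at 0.670. Mfsd2a carries lysophosphatidylcholine with long chain fatty acids and is induced in liver by fasting, Gpt is alanine aminotransferase, Sds is serine dehydratase, a gluconeogenic enzyme, and Prodh1 is a proline dehydrogenase. In the mean, Mfsd2a was at 455 CPM in the normal, 76.3 in the model and 283 in the TA livers, and Gpt at 497, 82.1 and 436. This choice leaned on the first model liver, since over the 8 other livers the nearest 5 were Ly75, Slc12a3, Ppp1r3c, Prodh1 and Syne2, with 1 of the 5 shared.

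For Mlc1 the nearest genes were much less alike. They were Pnoc, which encodes the neuropeptide precursor prepronociceptin, at 1.68, the retinoic acid hydroxylase Cyp26a1 at 1.69, the ferritin receptor Scara5 at 1.80, the ATP-gated channel P2rx5 at 1.84 and the receptor Adgrg2 at 1.88. Scara5 was at 1.11 CPM in the normal, 17.8 in the model and 14.4 in the TA livers, and Cyp26a1 at 1.21, 6.39 and 15.9. All 5 had their lowest mean in the normal group, as Mlc1 did, but in the first model liver each of them was well above Mlc1 relative to its own mean. Etnppl held place 851 by likeness to Mlc1, and Mlc1 held place 12766 by likeness to Etnppl, with a difference of 2.67. Part of this distance is set by the choice, which asked of Mlc1, and not of Etnppl, that it lie far above the normal livers.

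**Figure D4:**
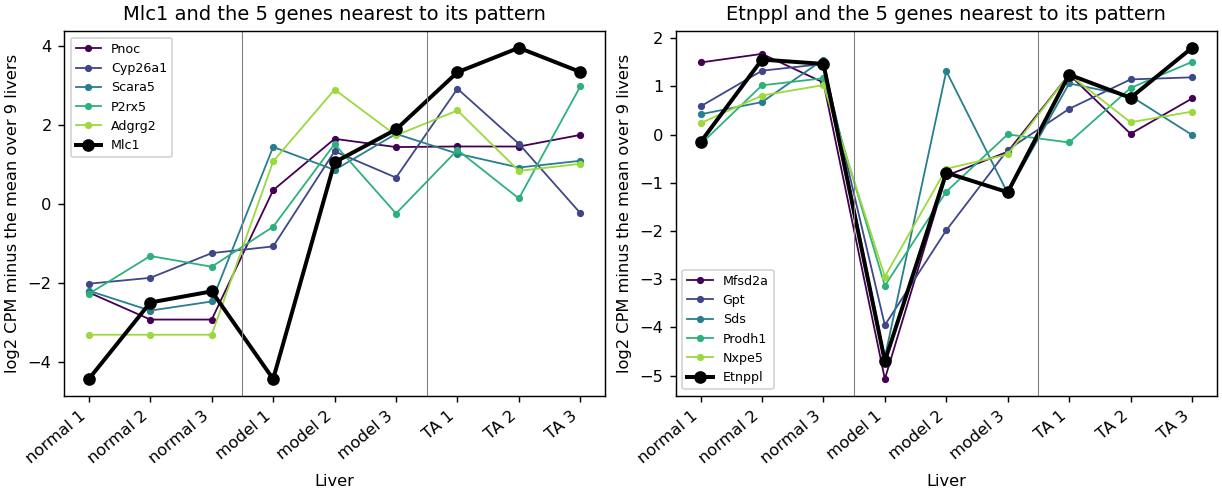
Log2 CPM minus each gene's own mean over the 9 livers (vertical axes) for Mlc1 (left, black) and Etnppl (right, black) with the 5 genes nearest to each in colour, by liver (horizontal axes, groups parted by lines). The genes nearest to Etnppl, with mean differences of 0.581 to 0.670, share its drop in the first model liver. In the second model liver, however, Sds is at 1.32 and Etnppl at -0.79. The genes nearest to Mlc1, at 1.68 to 1.88, do not share its 0 reads in the first model liver.

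The neighbouring genes on the chromosomes were read as well. Beside Mlc1 on chromosome 7, Pim3, a growth-promoting kinase, was at 1.07 in TA VS Model (unadjusted p = 0.0733) and fell in Model VS Normal (-1.83, unadjusted p = 0.00412), and Mov10l1 had 0 to 4 reads in every liver. A noncoding RefSeq gene, LOC134479953, overlaps Mlc1, and the counting is not stated to use strand, so that its reads and those of Mlc1 cannot be told apart. Beside Etnppl on chromosome 2, Col25a1 had 0 to 7 reads in every liver and Ostc, a subunit of the oligosaccharyltransferase, was at -0.21 in TA VS Model (unadjusted p = 0.451). Neither Pim3 nor Ostc passed the thresholds in TA VS Model, and the other neighbours were not tested.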

How the data were processed

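Liver RNA of 9 rats, 3 per group by the labels, was sequenced by the authors after poly(A) selection, and the reads were trimmed, mapped with STAR and counted with HTSeq-count. The methods name a human genome and the submitters' processing notes the mouse build mm9, whereas the tables hold rat symbols. Of 17156 names, 15601 (90.9%) matched rat RefSeq genes of GRCr8, used for names, neighbours and promoters. The build used for mapping could therefore not be settled. The authors deposited raw counts per gene, which were tested here, FPKM values, which were used for levels between genes, and normalized counts, log2 fold changes and p-values from DESeq2, which were not used. The tables listed 16938 and 16948 genes, 16730 in both, and the model counts were identical in both.

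The counts were compared between 2 groups at a time with edgeR 4.0.16 (R 4.3.3, quasi-likelihood test, TMM, its filter on low counts by group, Benjamini-Hochberg adjustment over all genes tested). Standard errors were taken as the absolute log2 fold change over the root of the F statistic. CPM are after TMM scaling over the 9 livers, with a prior count of 2 for log2 CPM. Genes were called at an unadjusted p under 0.05 and an absolute log2 fold change above 1, as in the study's methods. Groups without overlap are described for single genes only, and the share of all genes with such groups is not given. Alternatives were DESeq2 1.42.0, limma 3.58.1 (voom), other scalings and filters, all livers in 1 fit, a replicate block and leaving out each liver. The replicate numbers come from the labels and mark different animals. Between TA and normal livers of the same number, the deviations from the group means correlated at 0.232, 0.370 and 0.452. The labels give no pairing of animals, so that the main fits have no block. With the block, the genes with an adjusted p under 0.05 in TA VS Normal went from 32 to 203, which tests no pairing. The script was tested on simulated data. Nothing says how the livers were drawn from each group, and p-values measure the spread between these livers. The members and lists were chosen with earlier results of these data known. Named were Mlc1, Etnppl, the 5 genes most like each, up to 4 tested genes of each list with the largest change in TA VS Model, fixed pathway genes and the neighbours, and Phospho1 and the genes nearest to Etnppl without the first model liver were named after their values were seen. A gene that this rule also names is not reported here. The leaving out of the first model liver from the likeness and the lists was added after the data were seen. Depth (13156735 to 18090405 reads per liver) limits Mlc1 in the normal livers.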

Additional observations from a re-analysis of the deposited data

How the results depend on the processing

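TA VS Model chose both genes, and no TA liver overlapped a model liver, so that a kept sign is no separate result. The log2 fold changes of Mlc1 and Etnppl in TA VS Model kept their sign under every alternative fitted. As each liver was left out in turn, they ran from 2.06 to 3.58 for Mlc1 and from 2.32 to 3.41 for Etnppl, with the replicate block they were 3.46 and 3.39, and by limma voom 2.96 and 2.18. In Model VS Normal, Etnppl ran from -3.22 to -2.13 as livers were left out, while limma voom gave -1.63. Etnppl passed an adjusted p of 0.05 there with DESeq2 (-2.66), without the first model liver (-2.13) and with the replicate block (-3.14). The labels pair no livers for that block, and these fits share the model livers of the choice. In TA VS Normal, Etnppl ran from -0.22 to 0.42 and was below 0 without the first normal liver (-0.22) and without the third TA liver (-0.15), and it was at 0.28 with the replicate block. Mlc1 in TA VS Normal ran from 6.24 to 7.25 and was at 7.98 by limma voom, where the cause was not tested. In Model VS Normal, Mlc1 has a difference of mean log2 CPM (2.54) as its reported value, while the alternatives give fitted values on another scale, from 3.62 to 4.74 as livers were left out, the highest being the fit without the first model liver, whose Mlc1 reads were 0. Under a minimum of 10 counts in every library Mlc1 could not be fitted in any comparison, and in Model VS Normal it did not pass edgeR's filter under the other scalings and tests or with the replicate block.

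The genes called in TA VS Model numbered 1571, 2442 on library totals and 792 to 2792 as livers were left out, with 792 without the first model liver, 2792 without the third model liver and 973 without the second TA liver. In TA VS Normal they numbered 640, 403 under a minimum of 10 counts in every library and 525 to 918 as livers were left out, and in Model VS Normal 2817, with 2061 to 3917. Same-numbered livers correlated at 0.21, -0.038 and 0.0035 in TA VS Model and at 0.21, -0.051 and -0.055 in Model VS Normal. The numbers were not taken to pair livers in any comparison. The block gave 1719 calls in TA VS Model and 2922 in Model VS Normal. The genes nearest to Etnppl were the same 5 without TMM, with a prior count of 0.5 and on log2(FPKM + 0.1), while 4, 2 and 3 of the 5 nearest to Mlc1 were shared.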
